A study of Mus musculus with 6 samples.

Results

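Retinoic acid synthesis and handling was followed here through 9 of the 32285 genes in the count matrices: Aldh1a1, Aldh1a2, Aldh1a3, Rbp4, Crabp2, Cyp26b1, Stra6, Rdh10 and Dhrs3. They were chosen by name for their place in the pathway, with earlier results of these data known. Nuclei came from photothrombotic (PT) lesions of the mouse somatosensory cortex, in which light-activated Rose Bengal clots cortical vessels, and the study asked how blocking TGFβ signalling changed the cells of the lesion. Single nuclei were sequenced in 6 libraries, 1 for each of 3 conditions and 2 times after injury, in days post-injury (7 and 21 dpi), and each library pooled 1 male and 1 female adult mouse. All mice in all groups were injured, so no uninjured tissue enters any comparison.

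The control libraries (Ctrl) were labelled WT with no treatment. In the Tgfbr2-cKO libraries the genotype was Col1a2(creER); Tgfbr2(flox), in which tamoxifen-induced Cre under the Col1a2 promoter deletes the TGFβ type 2 receptor in cells that use that promoter, fibroblasts foremost. The ADWA11 libraries came from WT mice given ADWA11, an antibody that blocks integrin αvβ8, which releases active TGFβ. With 1 library per condition no test across animals was run and no p-value is given: intervals are exact 95% intervals for counting error only, and the nuclei assigned by sex stand for 1 mouse each.

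Retinoic acid is made from vitamin A in a pair of oxidations. Retinol carried in blood by RBP4 enters cells through STRA6, RDH10 oxidises it to retinaldehyde, DHRS3 runs that step backwards, and the ALDH1A enzymes oxidise retinaldehyde irreversibly to retinoic acid, which CRABP2 delivers to nuclear receptors and CYP26B1 degrades. In the developing and adult brain the meninges are a known source of retinoic acid, and Aldh1a2 is widely used as a marker of arachnoid and inner meningeal fibroblasts, while Aldh1a1 is also made by some astrocytes.

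After filters, 61917 of 67360 barcodes were kept, from libraries of 64798965 to 140310354 unique molecules (UMIs) with medians of 4601.5 to 8222.5 UMIs per barcode. Of 66803 distinct barcode sequences, 553 were shared by 2 or more libraries. Clusters were named by marker genes, as fibroblast-like, myeloid-like and so on, and the suffix is dropped for the large classes below. The 18472 fibroblasts came from all libraries: at 7 dpi Ctrl had 2584, ADWA11 had 3113 and Tgfbr2-cKO had 510, while at 21 dpi the numbers were 7150, 3868 and 1247. All 8 fibroblast markers were detected in every library, but their summed level was lowest in the Tgfbr2-cKO fibroblasts, at 4027 counts per 1000000 UMIs (CPM) at 7 dpi and 1838 CPM at 21 dpi against 6390 to 8223 CPM in the other 4 libraries. Tgfbr2 itself was at 326 CPM in Ctrl and 235 CPM in Tgfbr2-cKO fibroblasts at 7 dpi, and at 231 and 190 CPM at 21 dpi. The ADWA11 libraries, which carry no deletion, were at 250.3 and 199 CPM, with counting intervals that overlapped those of Tgfbr2-cKO. Reads from floxed transcripts outside the deleted exons are still counted, so this level is a weak check of the deletion.

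The promoters of 3 genes are shown, those that were more than 2-fold higher in Tgfbr2-cKO fibroblasts at both times (values below): the enzymes Aldh1a1 and Aldh1a2 that make retinoic acid, and Cyp26b1 that removes it. Each window is the 250 bases upstream of a RefSeq transcript start in GRCm38.p6, written 5′ to 3′ on the gene's own strand, and capitals mark a single receptor half-site in Aldh1a1 (GGGTCA, here on the opposite strand as TGACCC) and a TATAAA box sequence in Cyp26b1.
Aldh1a1, chr19:20601718-20601967, plus strand: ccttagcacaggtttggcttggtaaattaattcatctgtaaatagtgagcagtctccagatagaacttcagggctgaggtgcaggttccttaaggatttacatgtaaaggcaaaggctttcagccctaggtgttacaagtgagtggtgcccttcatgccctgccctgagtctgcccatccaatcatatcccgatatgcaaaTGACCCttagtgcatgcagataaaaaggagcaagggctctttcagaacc
Aldh1a2, chr9:71215539-71215788, plus strand: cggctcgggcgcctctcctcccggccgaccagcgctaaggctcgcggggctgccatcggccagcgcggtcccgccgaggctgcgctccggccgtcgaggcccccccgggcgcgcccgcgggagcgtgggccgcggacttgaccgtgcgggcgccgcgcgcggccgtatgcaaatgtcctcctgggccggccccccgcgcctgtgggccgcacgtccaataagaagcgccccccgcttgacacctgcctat
Cyp26b1, chr6:84593811-84594060, minus strand: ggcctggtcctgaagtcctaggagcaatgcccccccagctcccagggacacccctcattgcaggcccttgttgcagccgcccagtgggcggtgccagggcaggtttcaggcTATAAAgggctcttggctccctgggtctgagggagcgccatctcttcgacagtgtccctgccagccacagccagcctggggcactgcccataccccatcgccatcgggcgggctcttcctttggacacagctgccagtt
RefSeq gives Aldh1a1 a second start, whose window (chr19:20492333-20492582) is at 42.8% G or C and holds none of the motifs searched in its 250 bases. Aldh1a2 has the most GC-rich of the 3 windows, at 77.6% G or C, against 64.8% for Cyp26b1 and 46.4% for the Aldh1a1 window shown. The half-site searched was AGGTCA, with its variant AGTTCA, the form GGGTCA and the form GGTTCA, on both strands, over windows of 300 bases from 250 before to 50 after the start. Pairs of half-sites repeated in the same direction with 5 bases between them, the classical retinoic acid response element, occurred in 0.0974% of 32851 windows, in those of Cyp26a1 and Rarb among the pathway genes, and in 0 of 13 windows of the members. Pairs with 2 or 1 bases between them were in 0.268% and 0.222% of all windows and again in 0 of 13. A single half-site was in 43.7% of all windows and in 3 of 13, TATAAA in 13.6% and in 2 of 13, and CAGACA, the core bound by SMAD factors, in 21% and in 3 of 13, all 3 of Stra6. Windows for Aldh1a3, Crabp2 and Rdh10 were not analysed here.

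Fibroblasts held the highest pooled level of 5 of the 9 members (Aldh1a2, Aldh1a3, Crabp2, Stra6 and Rdh10), and each of the other 4 had another leading class. Aldh1a2, the retinaldehyde dehydrogenase of the meninges, was at 94.8 CPM over all fibroblasts, and fibroblasts gave 84.1% to 96.9% of each library's Aldh1a2 UMIs. The next class for Aldh1a2 was the neutrophil class of 1523 nuclei, at 21.2 CPM, a mix of leukocytes in which most nuclei were dendritic-like. Its range across libraries, 0 to 36.9 CPM, stayed below the fibroblast range of 39.2 to 218 CPM. Aldh1a1 was highest in astrocytes, at 547 CPM pooled and 223 to 902 CPM by library, a range that overlapped that of fibroblasts (152 CPM pooled, 49.3 to 796 CPM by library). Mural cells followed at 47.0 CPM, oligodendrocytes at 39.5, oligodendrocyte precursor cells (OPC) at 24.9 and endothelial cells at 21.9, with overlapping ranges.

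Dhrs3, the reductase that returns retinaldehyde to retinol, was highest in myeloid nuclei. It was at 390 CPM in the 22948 myeloid nuclei, with 246 to 460 CPM by library, then 173 CPM in the neutrophil class and 94.2, 85.2, 84.8 and 80.3 CPM in endothelial cells, fibroblasts, mural cells and T cells, whose ranges overlapped. Rdh10 differed least between classes. It was at 30.7 CPM in fibroblasts and 24.1 CPM in mural cells, and all other named classes lay between 10.9 and 18.7 CPM pooled. Stra6 was at 15.4 CPM in fibroblasts (7.95 to 22.5 by library) and 4.77 CPM in endothelial cells (0.482 to 10.6), which overlapped, and under 2 CPM elsewhere.

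The remaining members were rare. Rbp4, the retinol carrier, was at 9.36 and 5.69 CPM in 2 neuron clusters, numbers 18 and 20, and at 0.642 CPM in fibroblasts on 84 UMIs. Cyp26b1 was at 8.06 CPM in OPC, 7.64 in mural cells, 5.97 in fibroblasts and 5.57 in astrocytes, with ranges that overlapped. Aldh1a3 was at 5.50 CPM in fibroblasts, which rested on Ctrl at 7 dpi with 537 of its 719 UMIs (0.894 to 26.7 CPM by library, median 1.24), against 2.95 CPM in neuron cluster 17 and 1.87 CPM in endothelial cells, and Crabp2 at 5.25 CPM in fibroblasts with no other class above 1.5 CPM.

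**Figure D1:**
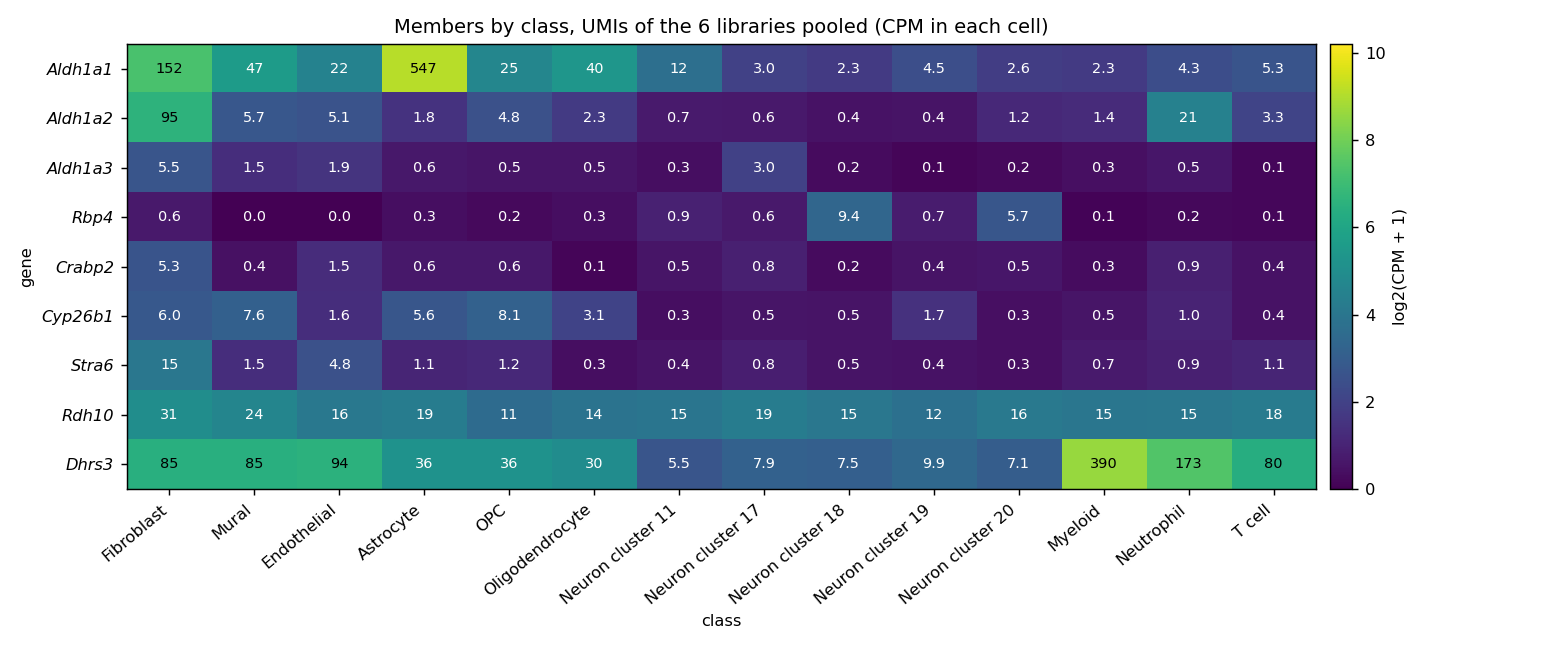
Heat map of the 9 members (rows) in each named class of nuclei (columns), with the UMIs of the 6 libraries pooled: the number in each cell is the CPM and the colour is log2(CPM + 1), and unnamed cluster 23 is left out. Aldh1a2 is highest in fibroblasts at 94.8 CPM, Aldh1a1 in astrocytes at 547 CPM and Dhrs3 in myeloid nuclei at 390 CPM.

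In fibroblasts, Aldh1a1 and Aldh1a2 were higher and Aldh1a3 was much lower in the Tgfbr2-cKO library at 7 dpi, and by 21 dpi Aldh1a1, Aldh1a2 and Cyp26b1 stood well above Ctrl while Stra6 was lower. Aldh1a1 fibroblast CPM at 7 dpi was 49.3 in Ctrl, 102 in ADWA11 and 122 in Tgfbr2-cKO. The matching 21 dpi values were 102, 143 and 796. Aldh1a1 was thus lowest in the Ctrl library at each time, and the 21 dpi Tgfbr2-cKO library stood far above all others. At 21 dpi it was 7.77-fold higher in the Tgfbr2-cKO library than in Ctrl, a log2 ratio of 2.96 (2.90 to 3.01), on 7269 and 4072 UMIs. At 7 dpi that log2 ratio was 1.30 (1.12 to 1.49). The near-identical paralog Aldh1a7 had 0 to 3 UMIs in the fibroblasts of any library, and Aldh1a1 overlaps the antisense gene C730002L08Rik, from which reads could be told apart only by strand.

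Aldh1a2 fibroblast CPM, in the same order, was 107, 167 and 218 at 7 dpi and 42.2, 39.2 and 202 at 21 dpi. Between the times it was lower in Ctrl and in ADWA11, while the level in Tgfbr2-cKO was nearly as high at 21 as at 7 dpi. The log2 ratio of Tgfbr2-cKO to Ctrl was 2.26 (2.17 to 2.36) at 21 dpi, 4.79-fold, and 1.03 (0.89 to 1.16) at 7 dpi. The 7 dpi value lay at the edge of 2-fold and was 0.66 as a mean over nuclei. Aldh1a3, the third enzyme of the family, was highest by far in Ctrl fibroblasts at 7 dpi. There it was at 26.7 CPM on 537 UMIs, while the ADWA11 library of that day had 2.99 CPM on 90 UMIs and the Tgfbr2-cKO library 1.14 CPM on 3 UMIs. The 21 dpi libraries had 1.33, 0.894 and 1.10 CPM. The log2 ratio to Ctrl at 7 dpi was -3.16 (-3.50 to -2.84) for ADWA11 and -4.55 (-6.83 to -2.99) for Tgfbr2-cKO. The 3 enzymes of the family thus did not share a direction: in the same 7 dpi libraries Aldh1a1 was higher and Aldh1a3 lower than in Ctrl under both conditions.

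Cyp26b1, the P450 enzyme that inactivates retinoic acid, had a fibroblast CPM of 2.94, 3.92 and 11.4 at 7 dpi, in that order of libraries, and of 2.26, 3.99 and 40.3 at 21 dpi. In the Tgfbr2-cKO libraries it was 3.89-fold higher than Ctrl at 7 dpi on 30 UMIs and 17.8-fold higher at 21 dpi on 368 UMIs, a log2 ratio of 4.15 (3.82 to 4.50). The 7 dpi log2 ratio of 1.96 was 1.14 without the 5 nuclei of each library that held most of its UMIs. Stra6, the retinol uptake receptor, was at 21.6, 18.9 and 22.5 CPM at 7 dpi and 16.5, 7.95 and 7.99 CPM at 21 dpi. The ADWA11 and Tgfbr2-cKO libraries at 21 dpi were both about 2-fold under Ctrl. The log2 ratios were -1.05 (-1.27 to -0.83) for ADWA11 and -1.04 (-1.41 to -0.69) for Tgfbr2-cKO. Stra6 overlaps Ccdc33 on the opposite strand and Gm16131 on its own, and reads from these could be counted differently.

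Rdh10 and Dhrs3, which set the first, reversible step, differed less. Rdh10 fibroblast CPM was 44.4, 40.8 and 41.9 at 7 dpi and 26.0, 19.9 and 18.7 at 21 dpi in the same order, lower in each 21 dpi library than in any at 7 dpi. Dhrs3 lay between 61.4 and 94.0 CPM in fibroblasts of all 6 libraries, at 87.0, 88.2 and 94.0 CPM at 7 dpi and 82.1, 92.0 and 61.4 CPM at 21 dpi. Crabp2, which carries retinoic acid to its receptors, was at 2.69, 1.83 and 4.19 CPM at 7 dpi and 7.90, 6.95 and 5.58 CPM at 21 dpi. Rbp4 was at 0.398 to 1.75 CPM on 2 to 19 UMIs per library, and in 4 of the 5 comparisons the interval of its log2 ratio included 0. At 21 dpi Tgfbr2-cKO was above Ctrl with an interval of 0.82 to 2.91, on 16 and 19 UMIs and under the CPM filter.

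**Figure D2:**
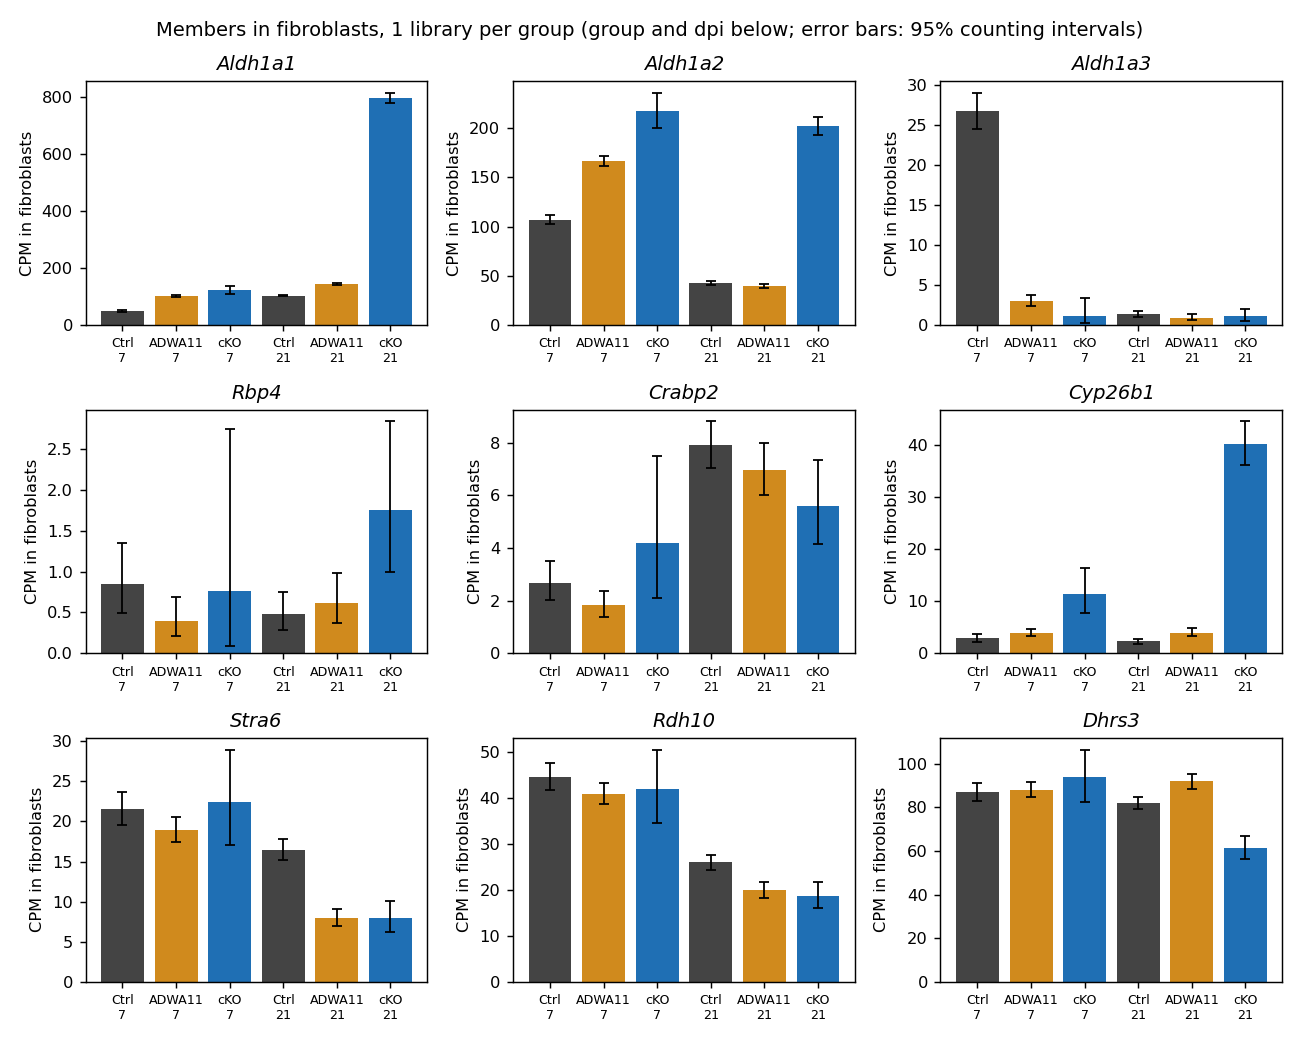
Level of each member in the fibroblasts of each library (CPM, a bar per library from 0, each gene on its own scale) with exact 95% counting intervals as error bars; the label under a bar gives the condition (cKO is Tgfbr2-cKO) and the dpi. The last bar, Tgfbr2-cKO at 21 dpi, is the tallest for Aldh1a1 (796 CPM) and Cyp26b1 (40.3 CPM), and the first, Ctrl at 7 dpi, for Aldh1a3 (26.7 CPM).

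Counted against all genes, a member was called when it differed at least 2-fold and had a mean of at least 5 CPM over the 2 libraries compared. For Tgfbr2-cKO against Ctrl at 7 dpi, 4 of the 7 members that passed the CPM filter were called (Aldh1a1, Aldh1a2 and Cyp26b1 higher, Aldh1a3 lower), where 10.3% of 11949 genes were, 8.12% higher and 2.16% lower. At 21 dpi it was again 4 of 7 (the same 3 higher, Stra6 lower), against 10.1% of 12018 genes, 5.94% higher and 4.19% lower. Stra6 was at a log2 ratio of -0.54 in male nuclei alone, under 2-fold. For ADWA11 against Ctrl, 2 of 6 members were called at 7 dpi (Aldh1a1 higher, Aldh1a3 lower) against 4.03% of 11597 genes, 2.17% higher and 1.85% lower. The Aldh1a1 log2 ratio of 1.06 lay at the edge of 2-fold, at 0.99 with DESeq2 size factors and 0.93 in male nuclei alone. At 21 dpi 1 of 6 was called (Stra6, lower) against 3.17% of 11953 genes, with 1.69% lower, and its log2 ratio was -0.52 in female nuclei alone and -0.95 as a mean over nuclei, both under 2-fold. Between Ctrl libraries at 21 and 7 dpi, 4 of 7 were called, Aldh1a1 and Crabp2 higher and Aldh1a2 and Aldh1a3 lower at 21 dpi, against 9.97% of 11696 genes, 6.39% higher and 3.58% lower. The Aldh1a1 call there lay at the edge of 2-fold, with a log2 ratio of 1.05 that was 0.91 to 0.99 under 5 alternatives. A member could pass the filter through its high library alone, as Aldh1a3 and Cyp26b1 did, and Crabp2 between the Ctrl libraries. The list was also chosen with earlier results of these data known, so these counts carry no test.

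The median log2 ratio of the members that passed was 0.11 and -0.42 for Tgfbr2-cKO at 7 and 21 dpi, beside 0.10 and 0.01 for all genes. For ADWA11 it was -0.05 and -0.15 beside 0.04 and 0.00, and between the Ctrl libraries -0.39 beside 0.03. The comparisons at one time share their Ctrl library, and the time comparison uses both. For Aldh1a1 the 7 dpi log2 ratios were 1.06 for ADWA11 and 1.30 for Tgfbr2-cKO, and those of 21 dpi 0.48 and 2.96. For Aldh1a2 they were 0.64 and 1.03 at 7 dpi, and -0.11 (-0.22 to 0.00) and 2.26 at 21 dpi.

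**Figure D3:**
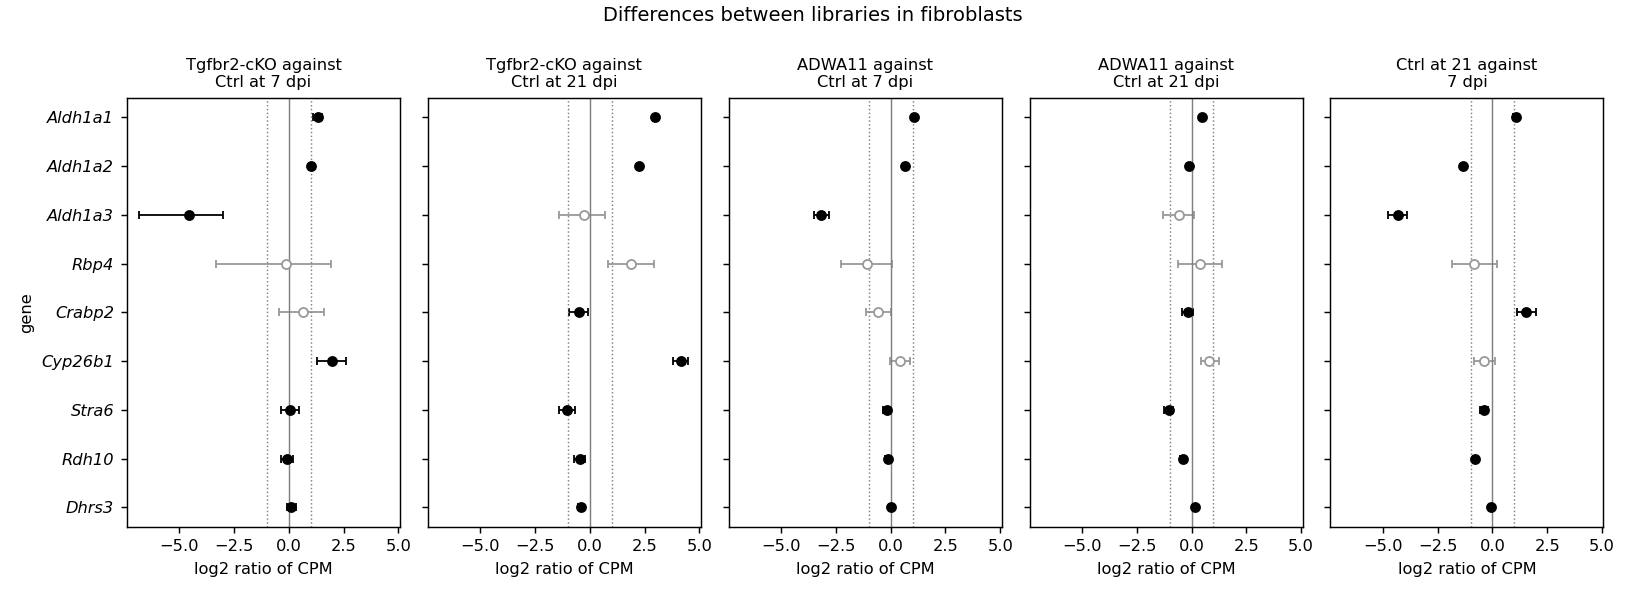
Log2 ratio of the CPM of each member in fibroblasts in the 5 comparisons, 1 panel each, with 95% counting intervals; dotted lines mark 2-fold and hollow points lie under the filter of 5 CPM. Aldh1a1, Aldh1a2 and Cyp26b1 lie beyond 2-fold on the higher side for Tgfbr2-cKO (cKO) at 7 and 21 dpi, and Aldh1a3 lies at -3.16 for ADWA11 and -4.55 for Tgfbr2-cKO at 7 dpi.

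The share of fibroblasts with at least 1 UMI was also highest in Tgfbr2-cKO at 21 dpi for Aldh1a1, while for Aldh1a2 it was about as high there as in the ADWA11 and Tgfbr2-cKO libraries of 7 dpi. For Aldh1a1 it was 16.9%, 30.7% and 22.4% in the 7 dpi libraries (Ctrl, ADWA11, Tgfbr2-cKO), and 26.8%, 37.4% and 59.1% in those of 21 dpi. Thinned to 2000 UMIs per nucleus, these were 8.40%, 14.4%, 14.8%, 15.6%, 19.4% and 50.1%. Median depths were 4294 to 9206 UMIs, and 126 to 1972 fibroblasts per library were too shallow to thin. For Aldh1a2 the share was 21.6%, 30.8% and 29.8% at 7 dpi and 8.39%, 10.1% and 30.8% at 21 dpi, or 13.8%, 16.9%, 25.5%, 5.85%, 5.04% and 22.0% when thinned. In T cells, which are not known for either enzyme, the unthinned share was 0% (0 of 174 nuclei, exact upper limit 2.10%) to 2.79% for Aldh1a1 and 0% to 1.32% for Aldh1a2, at median depths of 2366.5 to 3302 UMIs.

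Fibroblasts divided into 11 sub-clusters, of which 4 could be named from their markers: arachnoid-like (sub-cluster 3, 2054 nuclei), myofibroblast-like (6, 1103), proliferating-like (8, 260) and osteoblast-like (9, 230). The others are called by leading genes: Slc47a1 and Slc47a2 (sub-cluster 1, 4605 nuclei), Has2 and Eln (2, 2480), Lamc3 and Kl (4, 1359), Fgf18 and Clstn2 (5, 1115) and Ebf3 and Gabrg3 (7, 331). Sub-clusters 0 and 10, with 4762 and 173 nuclei, had few UMIs per nucleus and macrophage genes in the lead, and 35.0% of sub-cluster 0 was called doublets. The Has2 and Eln sub-cluster had 4 myofibroblast markers raised (Cthrc1, Acta2, Postn and Fn1) and most of its nuclei at 7 dpi (1058, 1193 and 140), and took no name because its leading genes held another class's marker. The named sub-cluster 6 had 5 raised (Acta2, Lrrc15, Postn, Tnc and Col12a1) beside 3 osteoblast markers, so neither stands for all myofibroblasts. The Lamc3 and Kl sub-cluster had 4 arachnoid markers raised (Slc6a13, Slc6a20a, Slc22a6 and Slc22a8) beside 2 leptomeningeal ones. It took no name because markers of other lists were among its leading genes. The 9 members and the other retinoid genes were kept out of the genes used for clustering.

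Aldh1a2 was concentrated in 2 sub-clusters. Its pooled CPM was 404 in the Lamc3 and Kl sub-cluster and 277 in arachnoid-like fibroblasts, which held 33.8% and 35.2% of fibroblast Aldh1a2 UMIs with 7.36% and 11.1% of the nuclei. It was 117 in proliferating-like, 97.6 in the Ebf3 and Gabrg3, 69.2 in the Has2 and Eln and 11.2 in the Slc47a1 and Slc47a2 sub-cluster. These pooled levels did not hold by library: proliferating-like nuclei had 163 CPM in ADWA11 and 15.2 CPM in Ctrl at 7 dpi. The Slc47a1 and Slc47a2 sub-cluster ranged from 0.886 CPM in ADWA11 to 52.8 CPM in Ctrl, both at 7 dpi. The order of the 2 highest turned in Ctrl at 7 dpi and in Tgfbr2-cKO at both times, with values given below. Sub-cluster 6, named myofibroblast-like, and the Fgf18 and Clstn2 fibroblasts had little, at 10.7 and 1.48 CPM, while the Has2 and Eln sub-cluster with its myofibroblast markers had the 69.2 CPM above. Stra6 was highest in arachnoid-like fibroblasts, at 55.5 CPM with 43.2% of its fibroblast UMIs, and Rdh10 in the Lamc3 and Kl sub-cluster, at 66.5 CPM. The highest pooled levels of Aldh1a2, Stra6 and Rdh10 thus lay in the Lamc3 and Kl or the arachnoid-like sub-cluster, but only Aldh1a2 led in both. Rdh10 was at 33.4 CPM in arachnoid-like fibroblasts, under the 45.0 CPM of the Has2 and Eln sub-cluster. Stra6 was at 14.8 CPM in the Lamc3 and Kl sub-cluster, under 17.0 CPM in the Has2 and Eln one.

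Aldh1a1 was more widely spread, at 1101 CPM pooled in the Ebf3 and Gabrg3 sub-cluster, 207 in arachnoid-like, 155 in Slc47a1 and Slc47a2, 153 in Lamc3 and Kl, 99.0 in Fgf18 and Clstn2 and 71.6 in myofibroblast-like fibroblasts. This pooled order did not hold within libraries: in Ctrl at 21 dpi Aldh1a1 was at 222 CPM in the Lamc3 and Kl, 106 in the Slc47a1 and Slc47a2 and 79.9 in the arachnoid-like sub-cluster. Osteoblast-like nuclei had the least, 11.0 CPM on 17 UMIs. Cyp26b1 was at 34.0, 16.5 and 14.4 CPM pooled in the Ebf3 and Gabrg3, Lamc3 and Kl and arachnoid-like sub-clusters, an order that turned within the Tgfbr2-cKO library at 21 dpi, at 35.6, 89.4 and 56.8 CPM. Crabp2 was highest in Fgf18 and Clstn2 fibroblasts, at 16.5 CPM, a sub-cluster with 1037 of its 1115 nuclei in Ctrl at 21 dpi. Aldh1a3 was at 23.8 CPM in proliferating-like and 19.2 CPM in Has2 and Eln fibroblasts. Dhrs3 was highest in sub-clusters 10 and 0, at 198 and 182 CPM, the 2 led by macrophage genes.

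**Figure D4:**
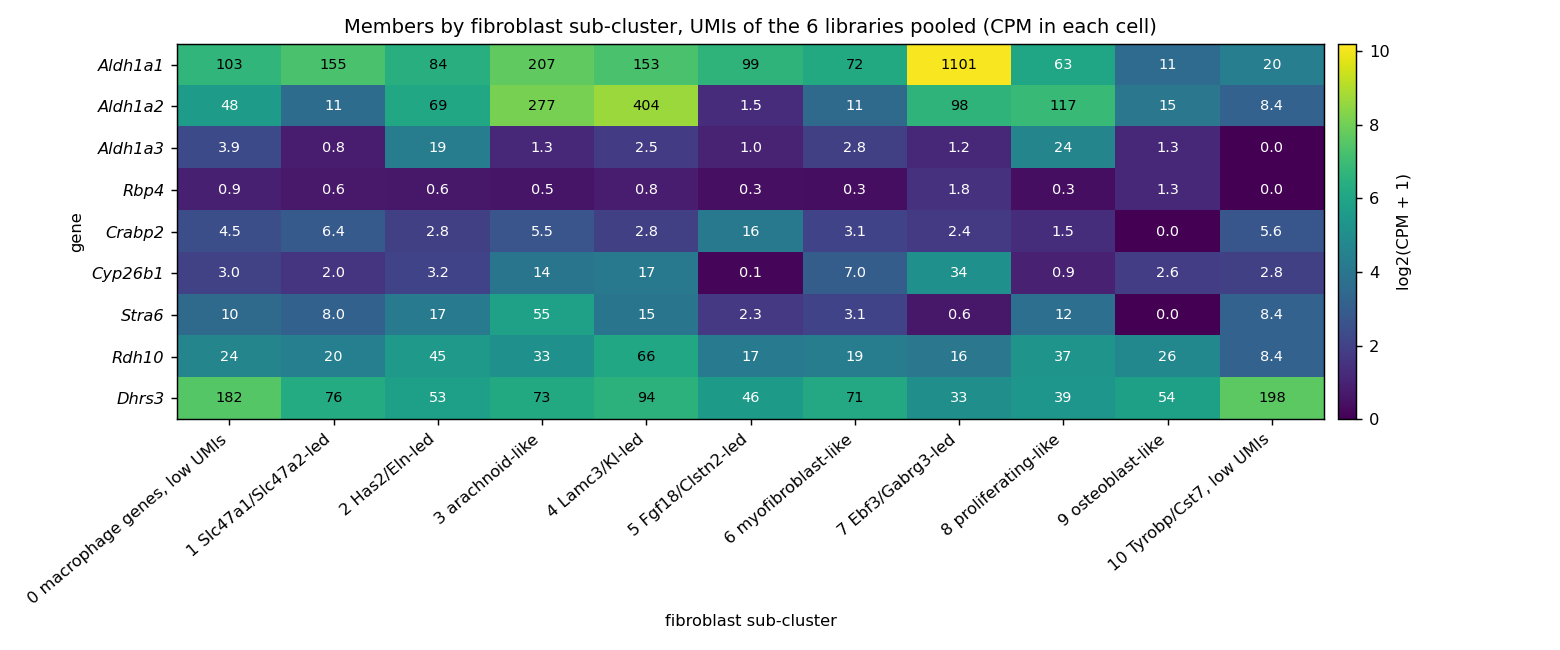
Heat map of the 9 members (rows) in the 11 fibroblast sub-clusters (columns), with the UMIs of the 6 libraries pooled: the number in each cell is the CPM and the colour is log2(CPM + 1). Aldh1a2 is highest in the Lamc3 and Kl (404 CPM) and arachnoid-like (277 CPM) sub-clusters, and Aldh1a1 in the Ebf3 and Gabrg3 sub-cluster (1101 CPM).

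The higher Aldh1a1 of Tgfbr2-cKO at 21 dpi was present within sub-clusters as well as between them. In the arachnoid-like fibroblasts of the 21 dpi libraries Aldh1a1 was at 79.9 CPM in Ctrl, 86.1 in ADWA11 and 737 in Tgfbr2-cKO, and at 7 dpi it was at 18.3, 74.1 and 99.5 CPM. The Tgfbr2-cKO log2 ratio there was 3.21 (3.04 to 3.38) at 21 dpi. It was 2.505 (2.36 to 2.65) in the Slc47a1 and Slc47a2 and 0.92 (0.67 to 1.18) in the Lamc3 and Kl sub-cluster. All 4 sub-clusters with 50 nuclei in both libraries were higher, among them sub-cluster 0, the one of few UMIs led by macrophage genes. The Ebf3 and Gabrg3 sub-cluster, with 312 of its 331 nuclei in that library (132 assigned to the female and 148 to the male), gave 50.7% of the library's fibroblast Aldh1a1 UMIs, at 1140 CPM. A cluster mostly of 1 library cannot be told apart from that library. Without it the log2 ratio of Aldh1a1 was 2.57, of Aldh1a2 2.63 and of Cyp26b1 4.24, and that of Stra6 moved from -1.04 to -0.43, under 2-fold.

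Within sub-clusters Aldh1a2 was higher in 3 of the 4 compared for Tgfbr2-cKO at 21 dpi, numbers 0, 1 and 3, of which 0 is led by macrophage genes. In arachnoid-like fibroblasts the 7 dpi libraries, Ctrl first and Tgfbr2-cKO last, had 372, 277 and 584 CPM from 119, 517 and 36 nuclei, and those of 21 dpi 204, 224 and 366 CPM. The Tgfbr2-cKO log2 ratio at 21 dpi was 0.85 (0.71 to 0.98). In the Lamc3 and Kl sub-cluster it was 360, 486 and 360 CPM at 7 dpi and 387, 258 and 347 CPM at 21 dpi, and the log2 ratio was -0.16 (-0.41 to 0.09). In the Slc47a1 and Slc47a2 sub-cluster it was at 43.7 CPM in Tgfbr2-cKO against 10.24 CPM in Ctrl, a log2 ratio of 2.10 (1.55 to 2.61), on 40 and 150 UMIs. The ratios within the 2 sub-clusters of highest Aldh1a2 were smaller than the 2.26 over all fibroblasts and that of the Slc47a1 and Slc47a2 sub-cluster was near it, and arachnoid-like nuclei made up 31.5% of Tgfbr2-cKO fibroblasts at 21 dpi against 8.56% in Ctrl. At 7 dpi the Has2 and Eln sub-cluster had 56.7, 74.7 and 155 CPM of Aldh1a2, a Tgfbr2-cKO log2 ratio of 1.45 (1.18 to 1.72).

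Cyp26b1 counts of Tgfbr2-cKO at 21 dpi were higher in both of the Aldh1a2-rich sub-clusters, and most of them came from the female. In arachnoid-like fibroblasts it was at 8.07 CPM in Ctrl, 0.766 in ADWA11 and 56.8 in Tgfbr2-cKO, where the log2 ratio was 2.82 (2.27 to 3.41) and the female had 150 UMIs from 182 nuclei and the male 16 from 159. In the Lamc3 and Kl sub-cluster it was at 7.30, 42.3 and 89.4 CPM, on 9, 32 and 50 UMIs, and 49 of the 50 were from the female, while the male had 1 UMI in 31 nuclei and Ctrl 9 in 222. Stra6 in arachnoid-like fibroblasts was at 77.1, 52.4 and 19.4 CPM at 21 dpi, against 61.9, 61.9 and 47.6 CPM at 7 dpi. Its Tgfbr2-cKO log2 ratio at 21 dpi was -2.00 (-2.42 to -1.59) there, further from 0 than over all fibroblasts. Under ADWA11 at 21 dpi Stra6 was at 0 CPM in the Lamc3 and Kl sub-cluster, against 21.9 CPM in Ctrl. In the Slc47a1 and Slc47a2 sub-cluster it was at 2.81 CPM against 14.0 CPM. Of the 6 sub-clusters compared, numbers 0, 1, 3, 4 and 6 were below Ctrl, and the osteoblast-like one had 0 Stra6 UMIs in any library.

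The Aldh1a3 of Ctrl fibroblasts at 7 dpi came mainly from the Has2 and Eln sub-cluster, which gave 72.6% of its UMIs. In that sub-cluster Ctrl had 41.3 CPM on 390 UMIs, ADWA11 4.73 CPM on 58 and Tgfbr2-cKO 2.04 CPM on 2. Proliferating-like nuclei had 85.9 CPM in Ctrl (62 UMIs from 61 nuclei) against 2.31 CPM in ADWA11 (5 UMIs from 166 nuclei).

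Nuclei assigned to the female or the male of each library gave 2 mice per condition to set side by side. Aldh1a1 fibroblast CPM in Tgfbr2-cKO at 21 dpi was 1132 in the female and 537 in the male, against 103 and 100 in Ctrl. Aldh1a2 was at 189 and 240 CPM against 45.4 and 36.1 CPM. Both mice of the Tgfbr2-cKO library were thus above both mice of Ctrl for these enzymes. Aldh1a3 at 7 dpi was at 31.6 and 28.0 CPM in Ctrl, 3.87 and 2.74 in ADWA11 and 0.935 and 0.985 in Tgfbr2-cKO. Both mice of a condition share 1 library, and how many of all genes separate the mice in this way was not counted. The order of the mice, here and below, therefore carries no test.

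For other members the mice differed more. Cyp26b1 in Tgfbr2-cKO at 21 dpi was at 76.1 CPM in the female and 14.6 in the male, against 2.86 and 1.37 in Ctrl. Stra6 at 21 dpi was at 20.5 and 10.8 CPM in Ctrl, 14.3 and 3.90 in ADWA11 and 10.0 and 7.41 in Tgfbr2-cKO, so both Ctrl mice were above both Tgfbr2-cKO mice and the ADWA11 female was above the Ctrl male. Aldh1a1 under ADWA11 at 21 dpi was at 90.9 CPM in the female, under both Ctrl mice, and 180 CPM in the male, above both.

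**Figure D5:**
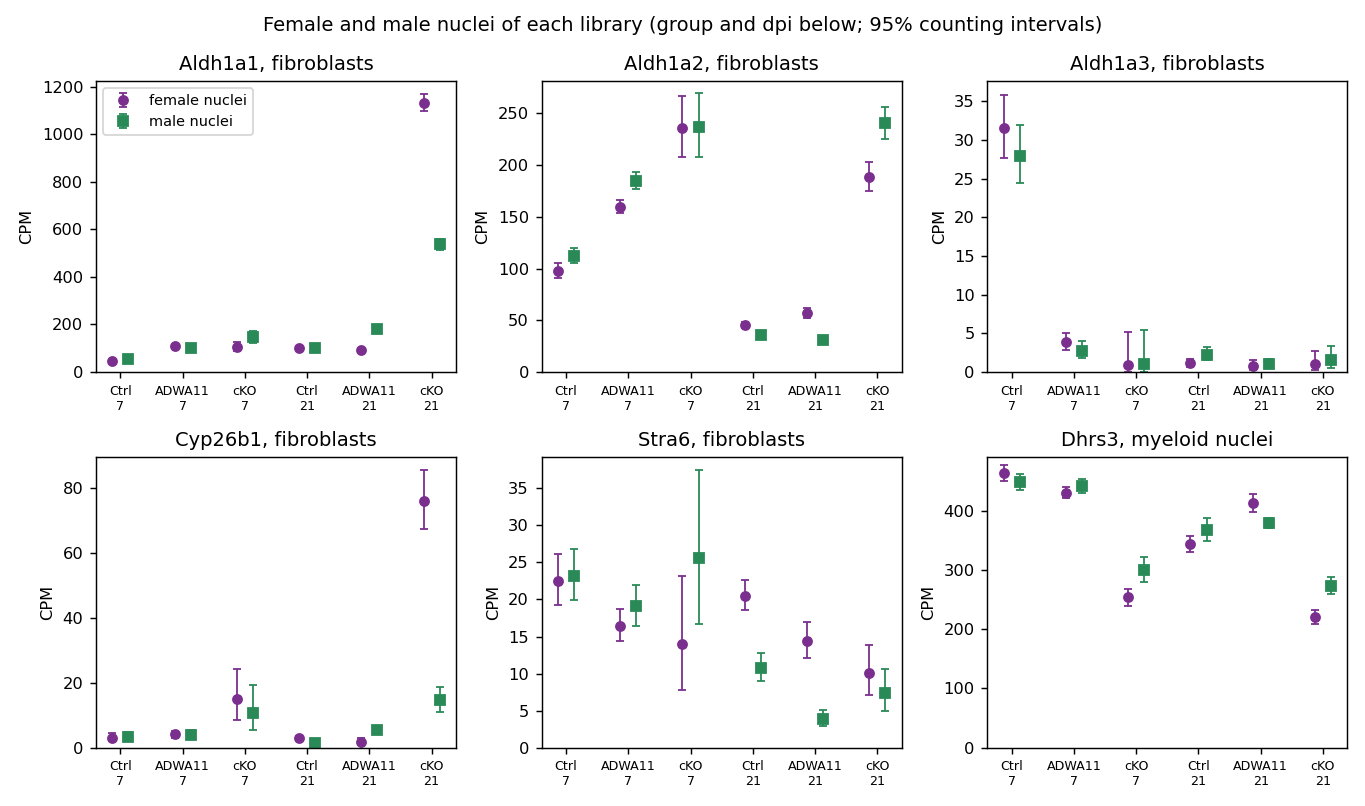
Level (CPM, axes from 0) in the nuclei assigned to the female (circles) and to the male (squares) of each library, with 95% counting intervals, for 5 members in fibroblasts and Dhrs3 in myeloid nuclei (cKO is Tgfbr2-cKO, with the dpi below). Both Tgfbr2-cKO mice at 21 dpi stand above both Ctrl mice for Aldh1a1, Aldh1a2 and Cyp26b1, with Cyp26b1 at 76.1 CPM in the female and 14.6 CPM in the male.

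Markers of other classes in the fibroblast counts also varied with the libraries. All 9 myeloid markers were detected, summing to 213 to 260 CPM in fibroblasts of the 6 libraries. All 6 astrocyte markers were detected in every library, summing to 749, 956 and 1011 CPM at 7 dpi (Ctrl, ADWA11, Tgfbr2-cKO) and 471, 500 and 1089 CPM at 21 dpi. Over all fibroblasts they were thus highest in Tgfbr2-cKO, with Aldh1a1. They summed to 1552 to 1704 CPM in the Lamc3 and Kl sub-cluster of the 6 libraries. In arachnoid-like fibroblasts they were at 2115 CPM in Ctrl at 7 dpi, and at 1097 in Ctrl and 1417 in Tgfbr2-cKO at 21 dpi. The list holds Slc1a3, which the study reports in CNS and injury-responsive fibroblasts too. Aldh1a1 in the astrocytes of the 21 dpi Tgfbr2-cKO library was at 447 CPM, less than the 796 CPM of its fibroblasts. Neuron markers summed to 291 and 94.9 CPM in Tgfbr2-cKO fibroblasts at 7 and 21 dpi, with 7 and 8 of 8 detected, and to at most 11.8 CPM in the other 4 libraries. Their part in the fibroblast ratios was not tested. Without sub-clusters 0 and 10 the 21 dpi Tgfbr2-cKO log2 ratios were 3.10 for Aldh1a1, 2.20 for Aldh1a2, 4.29 for Cyp26b1 and -1.02 for Stra6.

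In myeloid nuclei, Dhrs3 was lower in both Tgfbr2-cKO libraries. Its CPM at 7 dpi was 460 in Ctrl, 433 under ADWA11 and 270 in the Tgfbr2-cKO library, and 351, 385 and 246 at 21 dpi in the same order. The log2 ratio of Tgfbr2-cKO to Ctrl was -0.77 (-0.83 to -0.70) at 7 dpi and -0.51 (-0.58 to -0.45) at 21 dpi, both under 2-fold. In the nuclei assigned by sex (female first) it was at 464 and 448 CPM at 7 dpi in Ctrl against 254 and 300 CPM in the Tgfbr2-cKO library. At 21 dpi it was at 343 and 368 against 220 and 274 CPM. At 7 dpi the microglia-like nuclei of Ctrl had 442 CPM and those of Tgfbr2-cKO 259, and at 21 dpi 317 and 232. Of the myeloid sub-clusters with at least 50 nuclei in both libraries, 4 of 4 were lower in Tgfbr2-cKO at 7 dpi and 5 of 6 at 21 dpi, with mature dendritic-like nuclei the exception.

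Outside fibroblasts and neurons, Dhrs3 was lower in each class compared in the Tgfbr2-cKO libraries. In fibroblasts it was at 94.0 CPM against 87.0 CPM in Ctrl at 7 dpi. At 21 dpi it was lower there too, at 61.4 against 82.1 CPM, a log2 ratio of -0.42 (-0.55 to -0.29). Of the classes with 50 nuclei in both libraries, myeloid nuclei included, 4 of 4 were lower at 7 dpi and 8 of 8 at 21 dpi, while ADWA11 was lower in 4 of 7 and 1 of 6. In OPC, Dhrs3 at 7 dpi was at 58.5 CPM in Ctrl and 10.3 CPM in the Tgfbr2-cKO library, and on day 21 at 36.0 and 8.88 CPM. Over all nuclei of a library, Dhrs3 was at 254 CPM in Ctrl and 29.3 CPM in Tgfbr2-cKO on day 7, and at 129 and 78.1 CPM on day 21. The make-up of these libraries differed: at 7 dpi myeloid nuclei were 49.3% of Ctrl and 21.2% of Tgfbr2-cKO nuclei, and neurons 1.52% and 55.5%. Myeloid nuclei gave 81.3% and 66.6% of those Dhrs3 UMIs at 7 dpi and 54.2% and 73.2% at 21 dpi. The part of the whole-library level in the values of the other classes was not tested.

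Among leukocyte sub-clusters, the level of Aldh1a2 was highest in dendritic-like nuclei. The 981 mature dendritic-like nuclei had 25.0 CPM on 104 UMIs and the 155 conventional dendritic-like nuclei 17.4 CPM on 16 UMIs, against at most 2.96 CPM in each other sub-cluster, some of them larger, with up to 68 UMIs. The mature dendritic-like sub-cluster had 7 markers of its name raised beside 4 monocyte markers. Cd209a, a conventional dendritic marker, was among its leading genes. In mature dendritic-like nuclei the libraries with over 10 UMIs were those with ADWA11, at 34.6 CPM on 30 UMIs at 7 dpi and 35.6 CPM on 54 UMIs at 21 dpi, and Ctrl had 8 UMIs at each time, 8.35 CPM from 190 nuclei and 20.1 CPM from 113, with a counting interval at 21 dpi (8.68 to 39.6) that overlapped that of ADWA11.

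Astrocyte Aldh1a1 was higher at 21 than at 7 dpi. Its CPM at 7 dpi was 223 in Ctrl, 296 under ADWA11 and 282 in the Tgfbr2-cKO library, and 745, 902 and 447 at 21 dpi in the same order. In Ctrl the log2 ratio of 21 to 7 dpi was 1.74 (1.57 to 1.92). At 21 dpi the Tgfbr2-cKO log2 ratio was -0.74 (-0.80 to -0.67), where that of fibroblasts in the same libraries was 2.96, and the difference was not tested. The 6 astrocyte markers summed to 9196 CPM in those astrocytes against 4701 CPM in Ctrl, and to 10100 against 2915 CPM at 7 dpi, and their part in the Aldh1a1 values was not tested. By mouse, astrocyte Aldh1a1 at 21 dpi was at 429 and 494 CPM in Tgfbr2-cKO and at 694 and 899 CPM in Ctrl. Aldh1a1 of Ctrl was higher at 21 dpi in 7 of 7 classes other than fibroblasts and neurons, so the direction was not particular to astrocytes.

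Beside the 9 members, 34 other genes of retinoid uptake, oxidation, degradation and reception were counted in fibroblasts, of which 15 passed the CPM filter in each comparison. For Tgfbr2-cKO at 7 dpi, 2 were at least 2-fold higher, where 8.12% of all genes were. These were Fabp5, a carrier of fatty acids and retinoic acid, at 102 against 49.2 CPM, and Adh5, an alcohol dehydrogenase, at 23.6 against 9.46 CPM. At 21 dpi 0 of 15 were 2-fold different, and 0 of 15 under ADWA11 at either time. Of all genes 10.1% were for Tgfbr2-cKO at 21 dpi, and 4.03% and 3.17% for ADWA11 at 7 and 21 dpi. Between the Ctrl libraries 1 was, Fabp5, lower at 18.1 than 49.2 CPM, where 3.58% of all genes were lower. With 15 genes, counts this small lie near the shares of all genes and are no result about the list. Rarb, the receptor gene that retinoic acid itself induces in many cells, was singled out after its values were seen. It was at 326, 382 and 357 CPM at 7 dpi and 249, 242 and 226 CPM at 21 dpi, and its Tgfbr2-cKO log2 ratio at 21 dpi was -0.14. The medians of the 15 were 0.18 and -0.19 for Tgfbr2-cKO at 7 and 21 dpi.

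Over 39 sums by fibroblast sub-cluster and library, the genes whose level followed Aldh1a2 most closely were Slc7a11, Slc6a13 and Slc1a3, with Pearson's r of 0.91, 0.90 and 0.89 among 10683 genes. Those for Aldh1a1 were Orc5, Mbd1 and Ephx2, at 0.88, 0.85 and 0.85, and Aldh1a2 itself correlated with Aldh1a1 at 0.42. Stra6 was closest to Notch2, 9330185C12Rik and Egln3 (0.87, 0.86 and 0.84), Rdh10 to Cgnl1, Pdgfra and Fzd6 (each 0.91), and Dhrs3 to Tecpr1, Nceh1 and Nfam1 (0.82, 0.80 and 0.79). The sums of one library share its depth, so these values describe the libraries and carry no test.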

How the data were processed

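Libraries were droplet-based single-nucleus RNA (10x). The deposited matrices hold UMI counts per gene and barcode, made by the authors with Cell Ranger (version 7.2.0 in the file headers, 7.1.0 in the submitters' processing notes) on mm10 (GRCm38), filtered to cell barcodes. Barcodes were filtered on genes, UMIs and mitochondrial share, scored for doublets, clustered with Seurat 5.3.0 and sctransform 0.4.2 (R 4.3.3) and named by marker genes, as no annotation was used. Doublets were scored in Python 3.11.15 with scanpy 1.11.5 and kept in the main values. Levels are UMIs summed per class and library over non-mitochondrial UMIs, in CPM, and ratios have exact conditional binomial intervals (scipy 1.17.1). Scale factors of edgeR 4.0.16 and DESeq2 1.42.0 served as alternatives only. With 1 library per group no count model was fitted. Ratios were checked on simulated independent counts that hold counting error only, so the check says nothing of spread between nuclei or mice. Sex was assigned from Xist and Y-linked genes. The members and gene lists were chosen with earlier results of these data known. The text names every member in all comparisons, other retinoid genes that passed 2-fold, and, for members with at least 1000 fibroblast UMIs, up to 3 genes most correlated with each over sub-cluster and library sums of at least 50 nuclei. Promoters are from RefSeq (GRCm38.p6). The 3 counts that a level of 0 allows set the floor for ratios.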

Additional observations from a re-analysis of the deposited data

Results flagged for a closer look

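For 3 results a member differed from Ctrl one way at 7 dpi and the other way at 21 dpi in both mice of the libraries. The difference between the times was not tested. Dhrs3 in myeloid nuclei had an ADWA11 to Ctrl log2 ratio of -0.085 at 7 dpi and 0.135 at 21 dpi. Most myeloid sub-clusters did not turn: 4 of 6 compared were lower than Ctrl at 7 dpi and 5 of 7 at 21 dpi. The make-up differed, with 24 microglia-like nuclei under ADWA11 and 1162 in Ctrl at 21 dpi, and its part in the ratio was not tested. Aldh1a1 in astrocytes had a Tgfbr2-cKO to Ctrl log2 ratio of 0.339 at 7 dpi and -0.736 at 21 dpi. Aldh1a2 in the Lamc3 and Kl fibroblast sub-cluster had an ADWA11 to Ctrl log2 ratio of 0.435 at 7 dpi and -0.586 at 21 dpi.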

How the results depend on the processing

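No paired analysis was possible because the labels give 1 library per condition and no replicate numbers; nuclei of the same sex were set side by side without a test. The fibroblast ratios were recomputed with other scale factors, mean over nuclei, CPM filters, doublets or sub-clusters removed, by sex and without the 5 nuclei holding most UMIs, and removal of sub-clusters 7 and 9 was chosen after seeing the data. Of 491 values 83 moved by more than counting error. Of 164 values of the 15 ratios past 2-fold, 149 stayed past it and 0 reversed. A change of sign was looked for only in these 164. For Tgfbr2-cKO at 7 dpi the 4 calls became 2 at a mean of at least 20 CPM and 2 without those nuclei. For ADWA11 at 7 dpi the 2 became 1 with DESeq2 size factors, 1 in males and 1 at 20 CPM. At 21 dpi the 1 became 0 as a mean over nuclei, 0 in females and 0 at 20 CPM. Between Ctrl libraries the 4 became 2 at 20 CPM, and Aldh1a1 fell under 2-fold with TMM (0.988), DESeq2 factors (0.962), males (0.908), doublets removed (0.985) and low-UMI sub-clusters removed (0.931). TMM moved the median of all genes by -0.21 for Tgfbr2-cKO at 7 dpi, where the Aldh1a2 log2 ratio became 0.82. The cause was not tested beyond the filter itself. Shares of nuclei went the same way as CPM in 35 of 45 pairs unthinned and 39 thinned. Depth limits Rbp4 and the Tgfbr2-cKO library at 7 dpi, with 510 fibroblasts.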
